A study of Mus musculus with 14 samples.

Results

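The 10 genes described here encode inflammatory cytokines: Il1a, Il1b, Il6, Tnf, Il15, Il16, Il18, Ltb, Tnfsf13b and Ifng. They were taken by name from a table of 49583 mouse genes, and all 10 have a row in it. The table reports RNA sequencing of 14 samples in 7 groups of 2, all from wild type C57BL/6 mice. The central group is spleen Ter cells of tumour-bearing mice, sorted as positive for the erythroid antigen Ter-119 and negative for CD45 and lineage markers. Liver Ter cells were sorted by the same gate from embryonic liver at E14.5. Bone marrow of wild type mice gave 4 progenitor groups. Megakaryocyte-erythroid progenitors (MEP) were gated as c-Kit+, FcγR low, CD34+, lineage-, IL-7R- and Sca-1-, and common myeloid progenitors (CMP) by the same markers but CD34-. Hematopoietic stem cells (HSC) were gated as c-Kit+, Sca-1+ and lineage-, and common lymphoid progenitors (CLP) were also IL-7R+. The control was CD45+ Ter-119- cells from the spleen of tumour-bearing mice. The labels do not say which tumour the mice bore or how many animals stand behind a sample.

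Cytokines are small secreted or membrane-bound proteins by which immune cells signal to one another. Interleukin-1 beta and interleukin-18 are made as inactive precursors that caspase-1 cuts inside inflammasomes, whereas tumour necrosis factor and its relatives are made as membrane proteins. Many of these genes are switched on through the transcription factor NF-kappaB, which also drives its own inhibitors, and in blood-forming tissue they are best known from macrophages, neutrophils and lymphocytes rather than from red cell precursors.

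RefSeq gave a promoter window for 9 of the 10 genes, the exception being Il15. Upstream sequence is shown for 3 genes whose levels set spleen Ter cells apart in different ways and for Tnf, the neighbour of Ltb on chromosome 17. Il1b was the most abundant of the 10 in spleen Ter cells, Ltb was the next, and Il6 was lower there than in CMP. Sequences run 5′ to 3′ on the strand of the gene in GRCm38.p6, end at the base before the annotated gene, and have in capitals each match to GGGNNNNNCC, a loose NF-kappaB motif, or to TATAAA, the TATA box.
Il1b, chr2:129371140-129371289, minus strand: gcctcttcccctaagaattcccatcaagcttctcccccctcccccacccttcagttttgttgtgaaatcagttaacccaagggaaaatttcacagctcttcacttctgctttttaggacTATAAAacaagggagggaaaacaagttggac
Ltb, chr17:35194357-35194438, plus strand: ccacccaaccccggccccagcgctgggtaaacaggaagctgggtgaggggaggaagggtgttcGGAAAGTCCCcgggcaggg
Il6, chr5:30012964-30013113, plus strand: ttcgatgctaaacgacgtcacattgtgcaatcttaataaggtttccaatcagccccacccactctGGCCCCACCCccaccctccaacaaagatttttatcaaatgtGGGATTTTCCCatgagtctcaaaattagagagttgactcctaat
Tnf, chr17:35202008-35202157, minus strand: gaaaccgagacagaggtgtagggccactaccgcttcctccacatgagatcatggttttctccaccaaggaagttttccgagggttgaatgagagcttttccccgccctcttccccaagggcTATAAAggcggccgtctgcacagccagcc

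Motifs were searched on both strands of the 250 bases before each RefSeq start. Il16 had 3 windows and Tnfsf13b 2. A gene was counted if any of its windows matched, whereas the shares are per single window, so the 2 are not like for like. GGGNNNNNCC matched in the windows of 4 of the 9 genes, Il6, Tnf, Il16 and Ltb, and in 45.8% of all 32851 windows. The sequences printed above are shorter than the windows. The match in Tnf, 194 bases before the start, lies upstream of the printed stretch. In Ltb the matches at 40, 39 and 38 bases lie inside the annotated gene and are not printed either. TATAAA matched in 5, Il1a, Il1b, Tnf, Il18 and Ifng, and in 12.4% of all windows. It stood 29 to 32 bases before the start in every one of these but Il18. There the match was TTTATA, which is TATAAA on the opposite strand, 175 bases before the start. The AP-1 motif TGANTCA matched in Il1a, Il6, Il16 and Tnfsf13b and in 6.75% of all windows. The C/EBP motif TTGCNNAA matched in Il6 and Il16 and in 9.56%. A narrower NF-kappaB form, which fixes an A after the GGG and a TTT before the CC and leaves the base between them free, was written after the first matches in these genes had been seen. Its matches in Il6, Il16 and Ltb, against 0.356% of all windows, are therefore a consequence of how it was chosen and carry no weight. Matches of the 2 NF-kappaB forms overlap each other. A match describes letters and is not a binding site.

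The deposited values are 1 mean per gene and group in FPKM, a fragment count divided by transcript length and by library size. In the 4 columns of Ter cells, MEP and CMP, both libraries behind each mean were recovered from its digits and are called library A, the deeper, and library B. The spleen Ter libraries held 15107438 and 14545383 fragments, and the other 6 between 13413530 and 28537889. The spleen Ter libraries stood apart from each other: 40.1% of their genes at 1 FPKM or more differed over 2-fold, against 2.62% to 5.07% in the other 3 groups. Globin genes made up 13.7% of FPKM in spleen Ter and 47.6% in liver Ter. The control, HSC and CLP columns are in another number format and are given as the authors' means with no error. Differences between them and the other columns cannot be told apart from processing.

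Several groups went against their labels. The libraries labelled MEP averaged 84794 FPKM of the neutrophil gene S100a9 and 299 FPKM of Ly6g, but 0.147 FPKM of the platelet gene Pf4 and 1.26 FPKM of the erythroid factor Klf1. Cd34, whose product the MEP gate required, was at 0.0694 FPKM there and at 29.7 FPKM in the CMP libraries, which were gated as CD34-. Spleen Ter cells, gated as lineage-, averaged 590 FPKM of the B cell gene Cd79a, 91.8 FPKM of the T cell gene Cd3d, 10967 FPKM of S100a9 and 234 FPKM of the macrophage gene C1qb. Their red cell genes were present too, but below liver Ter. Hbb-bs was at 22394 FPKM, against 79975 FPKM in liver Ter, and Klf1 at 9.05 FPKM, against 317 FPKM. S100a9 reached 5728 FPKM in HSC and 7171 FPKM in CLP. The part of such cells in the cytokine levels was not tested, and in bulk RNA fewer cells of a type and less RNA per cell cannot be told apart.

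Inflammatory cytokine transcripts were more abundant in spleen Ter than in liver Ter cells. Of the 9 genes that could be tested, 7 rose and none fell, with Il1b, Ltb, Ifng, Tnf, Il18, Il16 and Il15 called. In the same test 42.8% of all 12905 genes were called higher in spleen Ter and 11.6% lower. All 7 calls held under 3 other scalings, which moved the all-gene median to 0.12, -0.05 and 0.45 and the share of all calls that were higher to 53.2%, 49% and 65.4%, against 78.6%. For all 10 genes both spleen Ter libraries exceeded both liver Ter libraries, as did 62.9% of all genes tested. The median log2 fold change was 3.51 over the 9 genes and 0.79 over all genes. Ifng reached 1 FPKM in the spleen Ter libraries alone and so entered the test only through the group where it is high; without it 6 of 8 genes rose, with a median of 3.46. Markers of other blood cells were called higher in spleen Ter as well: 8 of 8 B cell, 10 of 10 T cell, 8 of 8 NK cell, 12 of 12 macrophage and monocyte and 4 of 4 neutrophil markers tested. Cd3e, Cd3g and most other T cell markers, and some B and NK cell markers, reached 1 FPKM in the spleen Ter libraries alone. These entered the test only through the group where they are high. Of the other lists, 4 of 5 dendritic cell, 3 of 8 megakaryocyte and platelet and 1 of 6 mast cell and basophil markers were higher. All 5 tested red cell markers were lower in spleen Ter. The part of these cell types in the cytokine changes was not tested. In liver Ter, Cd79a averaged 0.594 and C1qb 2.32 FPKM. A call required a Benjamini-Hochberg adjusted p under 0.05 in limma on log2(FPKM + 1) and a change of at least 2-fold. Il1a reached 1 FPKM in 1 library only and was not tested.

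The other comparisons were mixed. Against the libraries labelled MEP, Il1b, Il18, Ltb and Ifng rose in spleen Ter cells, where 23.2% of all genes were called higher. Tnf and Tnfsf13b fell, where 19.4% of all genes were called lower. Against CMP the same 4 genes rose, with 14% of all genes called higher, and Il6 fell, with 28.1% called lower. Without Ifng, 3 of 8 genes rose in each. Under 3 other scalings Il16 was called higher against CMP as well. The median over the 9 genes was 0.23 against MEP and 1.14 against CMP, and over all genes 0.09 and -0.40. The 3 comparisons share the spleen Ter libraries.

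**Figure D1:**
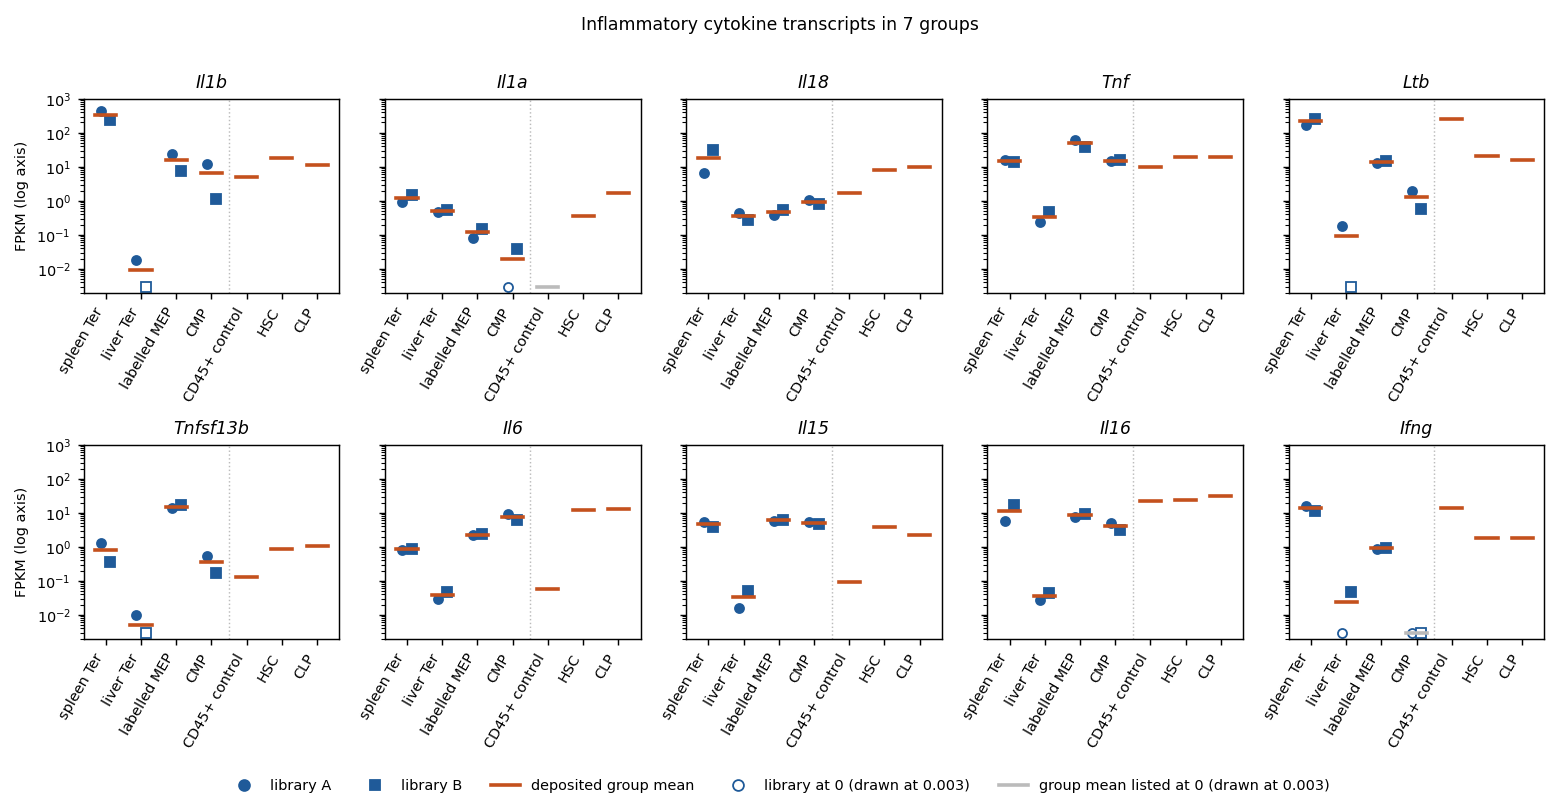
FPKM of the 10 cytokine genes on a log axis in 7 groups; circles and squares are libraries A and B where recovered, orange bars the deposited group means, and open or grey marks values of 0 drawn at 0.003. Spleen Ter libraries held 431 and 236 FPKM of Il1b, above every other group, whereas Tnf and Tnfsf13b were highest in the libraries labelled MEP.

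**Figure D2:**
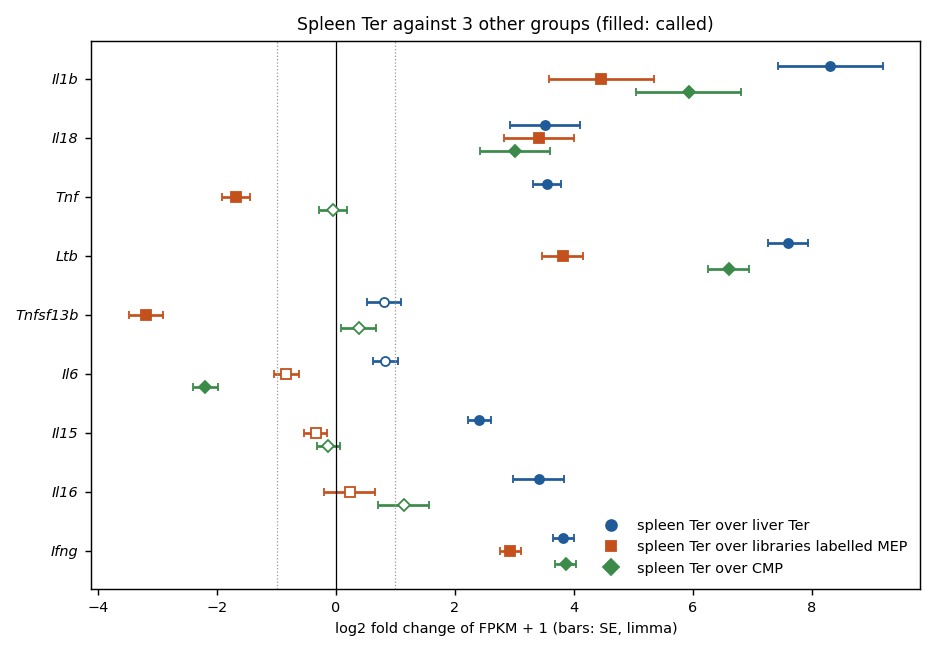
limma log2 fold change of FPKM + 1 for the 9 tested genes in spleen Ter over liver Ter, the libraries labelled MEP, and CMP; bars are SE, filled symbols passed the call and dotted lines mark a 2-fold change. Il1b, Il18, Ltb and Ifng lay right of the upper line in all 3 comparisons. Ifng entered the test through spleen Ter alone.

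Il1b (ENSMUSG00000027398, chr2:129364570-129371139, minus strand) encodes interleukin-1 beta, a fever-inducing cytokine. It had 431 and 236 FPKM in the spleen Ter libraries, against 0.0184 and 0 FPKM in liver Ter, 23.6 and 7.60 FPKM in the libraries labelled MEP, and 12.2 and 1.09 FPKM in CMP. Both spleen Ter libraries lay above all 6 others. Its log2 fold change was 8.31 ± 0.88 (SE) over liver Ter (adjusted p = 2.31e-04 in limma), 4.46 ± 0.88 over MEP (adjusted p = 0.00498) and 5.93 ± 0.88 over CMP (adjusted p = 0.00149). Liver Ter held 1 fragment in all, against 18965 in spleen Ter, so the ratio there has a wide counting interval, 5288 to 1.16e+06. The authors' means were 18.7 FPKM in HSC, 11.2 in CLP and 5.09 in the control, all below both spleen Ter libraries. The antisense gene Il1bos overlaps Il1b, and the labels do not say whether counting used strand.

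Il1a (ENSMUSG00000027399, chr2:129299610-129309972, minus strand), which encodes the related alarmin interleukin-1 alpha, lies 54597 bases from Il1b. It had 0.905 and 1.46 FPKM in spleen Ter, against 0.479 and 0.520 FPKM in liver Ter, 0.0823 and 0.151 FPKM in MEP, and 0 and 0.0378 FPKM in CMP. The spleen Ter libraries were the highest of the 8, at a low level: 27 and 42 fragments. The authors' mean was listed at 0 in the control and stood at 0.364 FPKM in HSC and 1.67 FPKM in CLP. Its neighbour Il1b was the abundant gene of the pair in spleen Ter cells.

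Il18 (ENSMUSG00000039217, chr9:50554827-50581840, plus strand) encodes interleukin-18, which prompts lymphocytes to make interferon gamma. It had 6.55 and 30.7 FPKM in spleen Ter, against 0.442 and 0.277 FPKM in liver Ter, 0.394 and 0.531 FPKM in MEP, and 1.06 and 0.795 FPKM in CMP. The spleen Ter libraries were above the other 6 but 4.69-fold apart, library B being higher. It rose by 3.51 ± 0.59 on the log2 scale over liver Ter (adjusted p = 0.00189 in limma), 3.41 ± 0.59 over MEP (adjusted p = 0.00288) and 3.01 ± 0.59 over CMP (adjusted p = 0.00500). The authors' means were 8.30 FPKM in HSC, 9.92 in CLP and 1.69 in the control, and those of HSC and CLP fell between the spleen Ter libraries. Bco2 and Tex12 overlap Il18 on the opposite strand.

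Tnf (ENSMUSG00000024401, chr17:35199381-35202007, minus strand) encodes tumour necrosis factor. It had 15.5 and 13.9 FPKM in spleen Ter, against 0.235 and 0.452 FPKM in liver Ter, 62.1 and 39.2 FPKM in MEP, and 14.3 and 16.2 FPKM in CMP. Liver Ter was low, the libraries labelled MEP were high, and spleen Ter overlapped CMP. On the log2 scale Tnf changed by 3.55 ± 0.24 over liver Ter (adjusted p = 3.63e-05 in limma), -1.68 ± 0.24 over MEP (adjusted p = 0.00123) and -0.05 ± 0.24 over CMP (adjusted p = 0.882). The sign of that last difference flipped under 3 other scalings, to 0.51, 0.27 and 0.15. The authors' means were 19.2 FPKM in HSC, 19.4 in CLP and 10 in the control, all within 2-fold of spleen Ter.

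Ltb (ENSMUSG00000024399, chr17:35194439-35196320, plus strand) lies 3060 bases from Tnf and encodes lymphotoxin beta, which lymphocytes use to organise lymphoid tissue. It had 170 and 260 FPKM in spleen Ter, against 0.185 and 0 FPKM in liver Ter, 13 and 15.1 FPKM in MEP, and 1.98 and 0.590 FPKM in CMP. The spleen Ter libraries were far above the rest, with no overlap. Ltb rose by 7.60 ± 0.34 on the log2 scale over liver Ter (adjusted p = 8.94e-06 in limma), 3.81 ± 0.34 over MEP (adjusted p = 1.91e-04) and 6.60 ± 0.34 over CMP (adjusted p = 3.31e-05). The authors' mean in the control, 250 FPKM, lay between the spleen Ter libraries, whereas HSC at 20.3 and CLP at 15.6 FPKM lay below both. Tnf and Ltb followed different orders over the groups. Lta, which encodes lymphotoxin alpha, the partner of lymphotoxin beta, had 8.66 and 23.1 FPKM in spleen Ter, against 0 and 0.206 FPKM in liver Ter.

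Tnfsf13b (ENSMUSG00000031497, chr8:10006467-10039072, plus strand) encodes BAFF, a survival factor of B cells. It had 1.29 and 0.350 FPKM in spleen Ter, against 0.0102 and 0 FPKM in liver Ter, 13.5 and 16.7 FPKM in MEP, and 0.547 and 0.174 FPKM in CMP. The libraries labelled MEP were the high ones, and spleen Ter overlapped CMP. Its log2 fold change was -3.19 ± 0.29 against MEP (adjusted p = 1.93e-04 in limma). Over liver Ter it was 0.81 ± 0.29 (adjusted p = 0.0416), under the 2-fold limit, 2.91 with a pseudocount of 0.1 and 0.43 without library A of spleen Ter; over CMP it was 0.38 ± 0.29 (adjusted p = 0.290). The authors' means of the control, HSC and CLP were 0.126, 0.848 and 1.09 FPKM.

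Il6 (ENSMUSG00000025746, chr5:30013114-30019981, plus strand) encodes interleukin-6, which drives the acute-phase response. It had 0.818 and 0.878 FPKM in spleen Ter, against 0.0289 and 0.0470 FPKM in liver Ter, 2.27 and 2.32 FPKM in MEP, and 9.34 and 5.99 FPKM in CMP. The groups did not overlap, with CMP high and liver Ter low. The log2 fold change was -2.20 ± 0.21 against CMP (adjusted p = 2.56e-04 in limma). It was -0.84 ± 0.21 against MEP (adjusted p = 0.0146) and 0.83 ± 0.21 over liver Ter (adjusted p = 0.0121), both under the 2-fold limit on FPKM + 1. With a pseudocount of 0.1 both were called, at -1.34 and 2.78. Under quantile scaling the first was called, at -1.01, and the second was not, at 0.20. Fragment ratios scaled by depth were 0.369 against MEP (95% counting interval 0.274 to 0.49) and 23.7 over liver Ter (8.8 to 89.7). Liver Ter held 4 fragments in all. HSC and CLP had the highest of the authors' means, 11.7 and 12.9 FPKM, and the control the lowest, 0.0570 FPKM.

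Il15 (ENSMUSG00000031712, chr8:82331632-82403222, minus strand) encodes interleukin-15, a growth factor of NK and memory T cells. It had 5.21 and 3.86 FPKM in spleen Ter, against 0.0155 and 0.0504 FPKM in liver Ter, 5.66 and 6.30 FPKM in MEP, and 5.38 and 4.68 FPKM in CMP. Liver Ter was far below the rest, with 3 fragments in all, and spleen Ter overlapped CMP and lay just below MEP. The log2 fold change was 2.41 ± 0.19 over liver Ter (adjusted p = 6.79e-05 in limma), -0.34 ± 0.19 against MEP (adjusted p = 0.167) and -0.13 ± 0.19 against CMP (adjusted p = 0.584); the sign of the last flipped under 3 other scalings. The authors' mean was 0.0929 FPKM in the control, 48.8-fold under that of spleen Ter, a difference across the 2 number formats that cannot be told apart from processing. HSC stood at 3.71 and CLP at 2.22 FPKM.

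Il16 (ENSMUSG00000001741, chr7:83642825-83745726, minus strand) encodes interleukin-16, a chemoattractant of CD4 T cells. It had 5.93 and 16.5 FPKM in spleen Ter, against 0.0267 and 0.0435 FPKM in liver Ter, 7.70 and 9.23 FPKM in MEP, and 4.93 and 3.22 FPKM in CMP. Liver Ter was low, and the spleen Ter libraries lay on either side of MEP. The log2 fold change was 3.41 ± 0.43 over liver Ter (adjusted p = 4.69e-04 in limma), 0.23 ± 0.43 over MEP (adjusted p = 0.675) and 1.14 ± 0.43 over CMP (adjusted p = 0.0568). The difference from CMP was called under 3 other scalings, at 1.55, 1.63 and 1.33. It was called without library A of spleen Ter, at 1.81, and not without library B, at 0.47 (adjusted p = 0.125 in limma). Also without library B the difference from MEP was -0.44. The authors' means, 23.1 FPKM in HSC, 30.3 in CLP and 22.1 in the control, exceeded both spleen Ter libraries. Stard5 and 2310044K18Rik overlap Il16 on the opposite strand, and the pseudogene Phgdh-ps1 overlaps it on the same strand. Il1a, Ltb and Tnfsf13b each overlap 1 annotated gene as well.

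Ifng (ENSMUSG00000055170, chr10:118441046-118445892, plus strand) encodes interferon gamma, the product of T and NK cells that activates macrophages. It had 15.6 and 11.6 FPKM in spleen Ter, against 0 and 0.0472 FPKM in liver Ter, 0.841 and 0.949 FPKM in MEP, and 0 in both CMP libraries. Spleen Ter alone was above 1 FPKM among these groups, so Ifng entered the test only through the group where it is high. The log2 fold change was 3.82 ± 0.18 over liver Ter (adjusted p = 9.88e-06 in limma) and 2.93 ± 0.18 over MEP (adjusted p = 5.08e-05). Over CMP it was 3.86 ± 0.18 (adjusted p = 2.40e-05 in limma). Spleen Ter held 489 fragments and CMP none. Scaled by depth, the fragment ratio was 154 with CMP set at a floor of 3 fragments over the group. With CMP left at 0, the 95% counting interval of the ratio had a lower limit of 125. The authors' mean in the control was 13.5 FPKM, between the spleen Ter libraries, and those of HSC and CLP were 1.77 and 1.86 FPKM. Its fragments were recovered with a transcript length of 1207 bases found by search, the annotated one being 1295.

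Liver Ter had the lowest mean of the 4 recovered groups for every member but Il1a and Ifng. Against the libraries labelled MEP, 7 of the 9 tested genes fell in liver Ter, where 33.3% of all genes did, and against CMP 6 fell, where 53% of all genes did. No member rose in either, with 8.73% and 6.97% of all genes called higher. The calls of Il1b (-2.38 ± 0.88, adjusted p = 0.0451 in limma) and Ltb (-1.0 ± 0.34, adjusted p = 0.0339) against CMP stood near the limits and were lost under most alternatives. Between the libraries labelled MEP and CMP, Tnf, Ltb and Tnfsf13b were called higher in MEP, where 7.38% of all genes were, and Il6 lower, where 24.3% were. The call of Il6 was lost under median-of-ratios and quantile scaling, at -0.72 and -0.81. Tnfsf13b was the largest of these, at 3.57 ± 0.29 (adjusted p = 2.86e-04 in limma).

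Set against the authors' means of the other 3 columns, with no error and no test, spleen Ter resembled the spleen control in some genes and not in others. These columns are in another number format than spleen Ter, so differences from them cannot be told apart from processing. Ltb and Ifng were within 1.16-fold of the control. Il1a, Il1b, Il15 and Il18 were past 2-fold higher on the log2(FPKM + 1) scale, as were 13.5% of genes, and none was past 2-fold lower, as 28.3% were. Il1b was 65.5-fold and Il18 11-fold above the control. Against HSC, Il1b, Il18, Ltb and Ifng were past 2-fold higher (14.2% of genes) and Il6 lower (34.1%). Against CLP, Il1b, Ltb and Ifng were higher (15.5%) and Il6 and Il16 lower (35.8%). The excess of Il18 over HSC rested on library B: library A alone gave -0.30. Il1a over the control was 0.93 in library A, and Il16 against CLP -0.83 in library B, both under 2-fold.

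The 2 spleen Ter libraries differed for some of the 10 genes. Il18, Il16 and Tnfsf13b were over 2-fold apart, as were 40.1% of tested genes at 1 FPKM or more in either library. Il18, Il16, Il1a and Ltb were 4.69-, 2.79-, 1.62- and 1.53-fold higher in library B, and Tnfsf13b and Il1b 3.69- and 1.83-fold higher in library A. Il15 and Ifng were 1.35-fold higher in library A, and Tnf and Il6 differed by 1.12-fold at most. Marker sums differed as well. The 12 macrophage and monocyte markers summed to 402 FPKM in library A and 1254 FPKM in library B, with 10 of them higher in B. The 6 mast cell and basophil markers summed to 72.9 and 12.7 FPKM in libraries A and B, and the 8 red cell markers of 10 recovered in both to 649 and 42.6 FPKM. The 5 neutrophil markers of 10 recovered in both gave 782 and 187 FPKM, Ltf alone giving 577 and 54.1 FPKM. Of these 5 markers, 3 were higher in library A and 2 in library B. B cell markers, all 8 recovered, gave 1056 and 1401 FPKM, T cell markers 468 and 597 FPKM, and NK cell markers 473 and 507 FPKM. Dendritic cell markers gave 10.5 and 14.9 FPKM, and megakaryocyte and platelet markers 80 and 112 FPKM. None of the lymphocyte or macrophage markers was at 0 in either library. Their part in the cytokine levels was not tested.

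**Figure D3:**
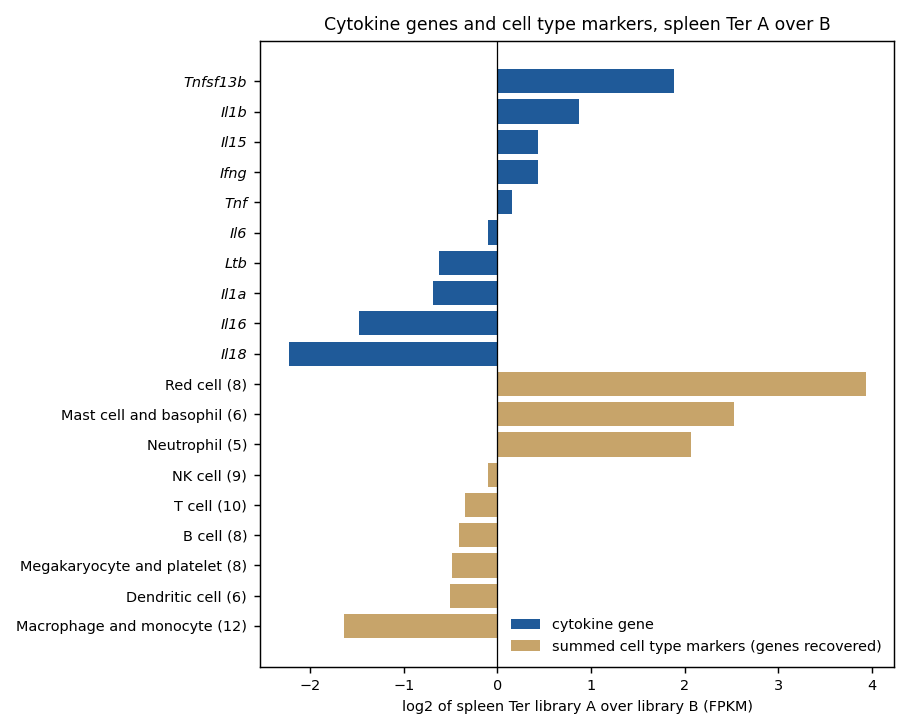
log2 ratio of spleen Ter library A over library B for the 10 cytokine genes (blue) and for the summed FPKM of cell type marker lists (tan, with the number of genes recovered). Among the genes, Il18 leans most to library B, at -2.23, and Tnfsf13b most to library A, at 1.88. Among the lists, macrophage and monocyte markers lean most to B, at -1.64. Red cell (3.93), mast cell and basophil (2.53) and neutrophil (2.07) sums lean to A, with 3 of the 5 neutrophil genes higher in A.

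Genes that receive or process these cytokines were described from 4 lists. Of 22 tested receptor, decoy and partner genes, 20 rose in spleen Ter over liver Ter, and none fell, where 42.8% of all genes were called higher and 11.6% lower. Their median change was 2.68 on the log2 scale, against 0.79 over all genes. Cd4 and Lta entered the test through spleen Ter alone, and without them 18 of 20 rose. Il1r2, the decoy receptor that captures interleukin-1, had 76.5 and 46.5 FPKM in spleen Ter, against 0.110 and 0.269 FPKM in liver Ter (5.68 ± 0.46, adjusted p = 7.56e-05 in limma). Il2rg, the common gamma chain of the interleukin-15 receptor, rose by 5.43 ± 0.16, Cd9 by 5.47 ± 0.20 and Ifngr1, the interferon gamma receptor, by 4.96 ± 0.37. Without those 2 genes, 6 of 20 rose and 3 fell against MEP (all genes: 23.2% and 19.4%), and 7 rose and 5 fell against CMP (all genes: 14% and 28.1%). Il2rb, another chain of the interleukin-15 receptor, and Tnfrsf13c, the BAFF receptor, rose in both, by 1.94 ± 0.43 and 4.20 ± 0.42 over MEP.

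Of 13 tested processing and inflammasome genes, 8 rose over liver Ter and 1 fell, against 42.8% and 11.6% of all genes. Casp1, the protease that matures interleukin-1 beta and interleukin-18, had 20.8 and 42.5 FPKM in spleen Ter, against 0.468 and 0.305 FPKM in liver Ter (4.48 ± 0.31, adjusted p = 4.02e-05 in limma). Gsdmd, whose product forms the pore for release, rose by 4.14 ± 0.15, and Pycard, the inflammasome adaptor, by 3.31 ± 0.23. Adam10, a sheddase, fell by 2.89 on the log2 scale. Against MEP 2 rose and 2 fell, where 23.2% and 19.4% of all genes did. Against CMP none rose and 6 fell, where 14% and 28.1% of all genes did, among them the neutrophil protease gene Ctsg.

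Of 15 tested NF-kappaB feedback genes, 14 rose over liver Ter and none fell, where 42.8% and 11.6% of all genes did; their median was 3.07, against 0.79 over all genes. Nfkbia, the inhibitor that NF-kappaB induces, had 524 and 381 FPKM in spleen Ter, against 6.02 and 7.01 FPKM in liver Ter (5.90 ± 0.18, adjusted p = 3.17e-06 in limma). Tnfaip3, the A20 brake, rose by 4.97 ± 0.23, Nfkbiz by 4.35 ± 0.22 and Bcl3 by 4.16 ± 0.45. Against MEP 6 rose and none fell (all genes: 23.2% and 19.4%), and against CMP 5 rose and 2 fell (all genes: 14% and 28.1%). Relb rose in both, by 2.17 ± 0.25 and 2.90 ± 0.25. Nfkbie rose over CMP, by 1.71 ± 0.40.

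Among 32 further cytokine genes 11 could be tested. Fasl and Il10 entered the test through spleen Ter alone. Of the other 9, 6 rose over liver Ter and none fell, where 42.8% and 11.6% of all genes did. Against MEP none of these 9 rose and 2 fell (all genes: 23.2% and 19.4%). Against CMP none rose and 4 fell (all genes: 14% and 28.1%). Fasl, the death ligand of cytotoxic lymphocytes, had 9.02 and 17.4 FPKM in spleen Ter, against 0 and 0.0883 FPKM in liver Ter. Il10, an inhibitory cytokine, had 3.59 and 7.45 FPKM, and both liver Ter libraries were at 0. Osm, oncostatin M, rose by 3.60 ± 0.37 over liver Ter and fell by 1.44 on the log2 scale against MEP. Il12a rose by 2.48 ± 0.17 over liver Ter and fell by 1.12 against CMP. Csf1, the macrophage growth factor, fell by 1.5 against CMP, and Il27 by 1.29 against MEP.

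**Figure D4:**
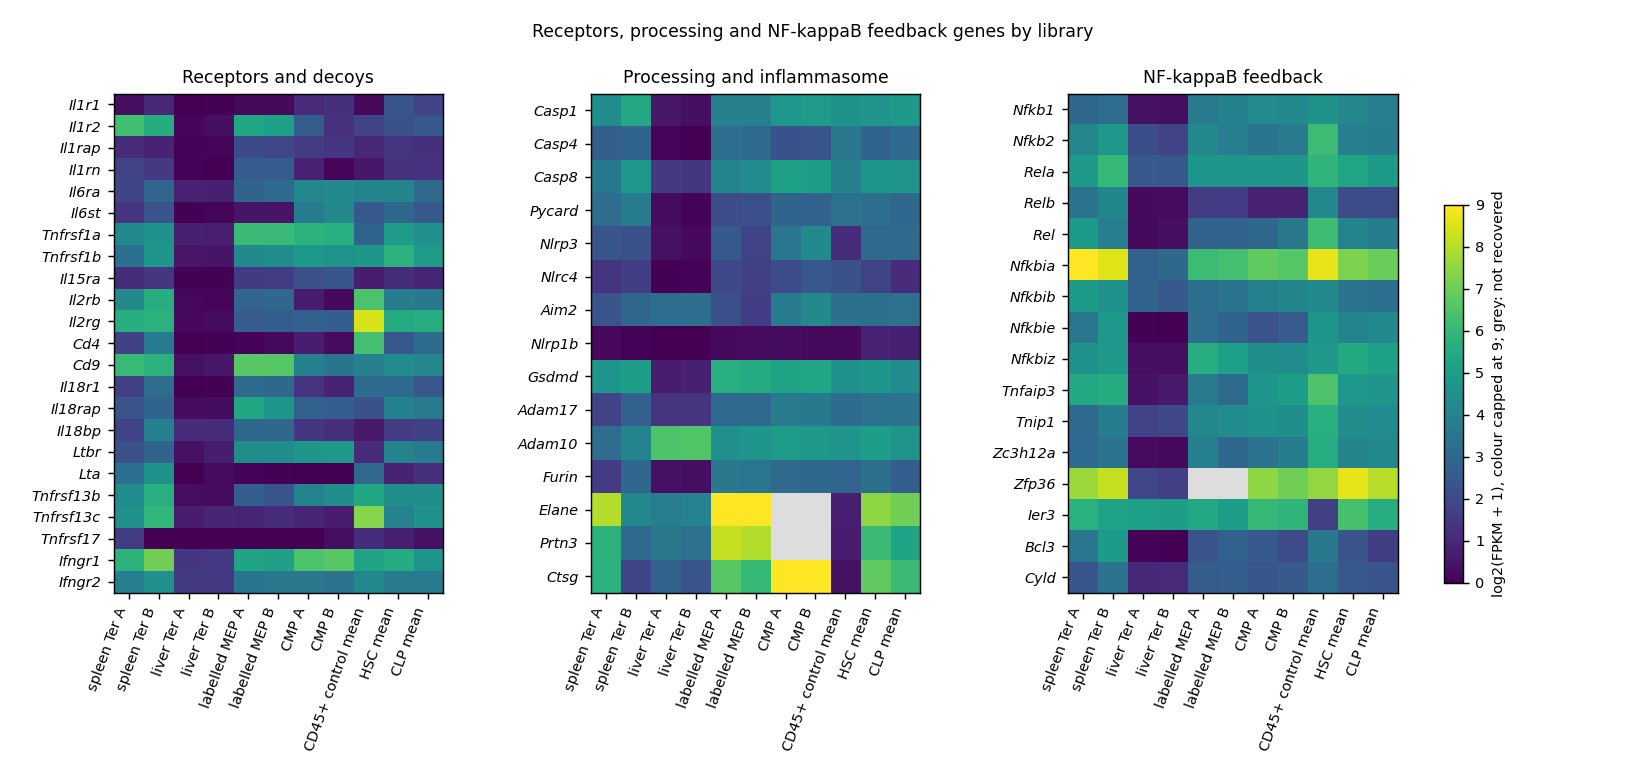
log2(FPKM + 1) of receptor and decoy, processing and inflammasome, and NF-kappaB feedback genes in the 8 recovered libraries and the 3 columns of authors' means; colour stops at 9 and grey cells were not recovered. The liver Ter columns are darkest for most genes, Adam10 being bright there, and Nfkbia is brightest in spleen Ter and the control.

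Patterns like those of the cytokines were sought among 6586 genes by the mean absolute difference of centred log2(FPKM + 1) over the 7 columns, as a description. Il1b was closest to Cxcl2, a neutrophil chemokine (0.53), and Wfdc17 (0.55), which averaged 318 and 446 FPKM in spleen Ter. Ltb was closest to Ccl5 (0.48) and Cd83 (0.54), and Ifng to Tigit (0.15) and Mapk11 (0.21). Il18 was closest to Itgad (0.34) and Cd302 (0.38), and Tnf to Mgst2 (0.25) and Atxn10 (0.26). Il6 was closest to Slc7a8 (0.19) and Cyp11a1 (0.29), Il16 to Nedd9 (0.32), and Tnfsf13b to Slco4c1 (0.17) and Ifnlr1 (0.21).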

How the data were processed

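The authors deposited 1 FPKM value per gene and group; the labels name the build mm10, and no aligner, counter or annotation is stated in them. The unit was read from the values, and the depth behind the control, HSC and CLP columns is unknown. Of 49588 lines, 2 had no gene and 3 were repeats; 49324 of 49583 genes were matched by ID to GENCODE M21. In 4 columns each value is the mean of 2 libraries, each a whole number of fragments over its depth and the gene's length, so both were solved for; this was done after seeing the data. Of 14022 genes at 1 FPKM or more there, 13706 (97.7%) were recovered, most very abundant genes not. The method was tested on simulated data.

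limma 3.58.1 (R 4.3.3; a trended eBayes after lmFit and contrasts.fit) was fitted to log2(FPKM + 1) of the 8 libraries over 12905 genes with at least 1 FPKM in 2 libraries, with 4 residual and 2.61 prior degrees of freedom; fold changes of low genes are understated by the pseudocount. The shared spread can make p-values too small for genes that differ between the spleen Ter libraries. The labels name no separate animals for the 2 samples of each group, so p-values measure the spread between these samples only. Fragment ratios have 95% intervals that cover counting error only. The members, gene lists, tests and alternatives were chosen with earlier results of these data known. Named genes are the 10 members, per list up to 4 with the largest change among those called against liver Ter and up to 2 more called against MEP or CMP, and per member at 10 FPKM or more the 2 most alike, with up to 3 genes per marker list; Lta, Cd4, Ltf, Ly6g, Klf1 and Cd34 were chosen after their values were seen. Of the genes this rule names, 2 are not reported here. The CD45 gene and the Ter-119 antigen are not analysed here. Promoter windows come from RefSeq (GRCm38.p6). Of 5 motifs searched, 1 was written after matches of the others were seen. Python 3.11.15 with numpy 2.4.6, pandas 2.3.3, scipy 1.17.1 and matplotlib 3.10.9 was used.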

Additional observations from a re-analysis of the deposited data

How the results depend on the processing

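Alternatives were another pseudocount, no filter or a filter of 5 FPKM, 3 scalings (median-of-ratios, quantile and totals without globin genes), leaving out each library, and voom on recovered fragments, added after seeing the data. Of 810 such results for single members, 748 kept direction and side of the threshold, and 24 lost and 21 gained the call. The other 17 changed sign or went to 0.00, none of these a tested call. The cause was not tested. Filter changes, and leaving out a library of neither compared group, cannot alter a fold change, so direction could not change there. Under median-of-ratios and quantile scaling 0 members were called lower in MEP than in CMP, Il6 being lost. In the order median-of-ratios, quantile and globin-free, spleen Ter against CMP became 0.51, 0.27 and 0.15 for Tnf and 0.35, 0.32 and 0.04 for Il15, and liver Ter against MEP 0.26, 0.67 and 0.20 for Il18. Il18 in liver Ter against CMP became 0.18 and 0.67 under the first 2, and in MEP against CMP 0.00 under quantile scaling. Leaving out 1 library, spleen Ter against CMP ranged from -0.13 to 0.04 for Tnf, 0.03 being without spleen Ter library B, and from -0.31 to 0.05 for Il15. Il16 against MEP ranged from -0.44 to 0.89, Il18 against HSC from -0.30 to 1.77, and Ifng in liver Ter against CMP from 0.00 to 0.07. Il6 and Tnfsf13b in spleen Ter over liver Ter were called with a pseudocount of 0.1 (2.78 and 2.91) and by voom (4.24 and 6.53). Il6 was 0.20 under quantile scaling and Tnfsf13b 0.43 without spleen Ter library A, neither called. Il16 against CMP was called under the 3 scalings (1.55, 1.63 and 1.33), making 5 members higher in place of 4. The share of all calls that were higher in spleen Ter than in liver Ter was 78.6%, against 53.2%, 49% and 65.4% under the 3 scalings. Against CMP it was 33.2%, against 57.3%, 46.3% and 39.9%. No paired analysis was possible because the recovered libraries carry no replicate numbers. Depth limits genes at 0 to 3 fragments in a group, such as Il1b in liver Ter.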
